A study of Mus musculus with 1 sample.

Results

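Nr4a1, Nr4a2, Nr4a3, Klf2, Klf4, Klf6, Rhob and Phlda1 were followed across single alveolar macrophages (AMs, the resident macrophages of the lung airspaces). These 8 genes, of 11918 genes listed for the library, were chosen from earlier results of the same data, so their detection, their joint detection and their relation to Fos and Jun are given as descriptions and carry no test. The study asked what the histone deacetylase HDAC3 does in tissue-resident macrophages. The library came from a WT adult mouse (Hdac3fl/fl without Csf1rCre, wild-type in the sample label, on an FVB/NJ background backcrossed to C57BL/6 for 10 generations, 8 to 12 weeks old), from which CD45+CD11c+SiglecF+ lung cells were sorted and 5000 cells were loaded for 10x Genomics 3' sequencing (v2 chemistry). The floxed Hdac3 alleles were thus present in all cells, and the library of the Cre-positive mice was not analysed here. Csf1rCre and the backcross are given as in the deposited description. The paper names Cd11cCre for the Cre-positive mouse of this experiment and gives fewer backcross generations for its Csf1r cross. With 1 library there was no replicate, and every interval below is a 95% interval that covers counting error only.

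Nr4a1, Nr4a2 and Nr4a3 encode orphan nuclear receptors, transcription factors of the steroid receptor superfamily that act without a known classical ligand and whose genes are switched on within minutes by many stimuli, as are Fos and Jun. Klf2, Klf4 and Klf6 encode zinc-finger factors of the Krüppel-like family, which bind GC-rich and CACCC elements. In myeloid cells Klf2 and Klf4 are known for restraint of inflammatory genes and for monocyte differentiation, and Klf6 for inflammatory gene expression. Rhob encodes a small GTPase of endosomes that is itself an immediate-early gene, and Phlda1 encodes a pleckstrin homology-like domain protein induced by mitogens and stress. Fos and Jun encode subunits of the AP-1 transcription factor. The cells were dissociated from the lung before sorting, and the part of this step in the levels was not tested.

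The promoters are shown because the Nr4a genes shared a short element there that the choice of genes did not use. The 250 bases before the RefSeq start were available in GRCm38.p6 for 7 of the 8 genes (not for Phlda1). TGACG, the core of the cAMP response element to which CREB-family factors bind, was searched on both strands, so that it also appears as CGTCA. It occurred 4 times in each of Nr4a1, Nr4a2 and Nr4a3, once in each of Klf2 and Klf4 and not in Klf6 or Rhob. At least 1 match was present in 17.8% of 32851 mouse promoters of the same length. The share of promoters with 4 matches was not counted, so the counts of 4 have no background. The GC content of the Nr4a promoters was 74.4%, 80.0% and 63.6%, above the median of 52.4% over all promoters, and the counts of matches were not corrected for it. In the sequences below, written 5' to 3', capitals mark TGACG or CGTCA. The Nr4a1 stretch (chr15:101266596-101266845, plus strand) lay inside the GENCODE span of the gene and overlapped none of its exons. The Nr4a2 stretch was chr2:57124004-57124253 (minus strand). For Nr4a3 the 98 bases before the first GENCODE exon (chr4:48045055-48045152, plus strand), with 3 of its 4 matches, are shown. Rhob (chr12:8500010-8500259, minus strand) is shown for contrast.
Nr4a1: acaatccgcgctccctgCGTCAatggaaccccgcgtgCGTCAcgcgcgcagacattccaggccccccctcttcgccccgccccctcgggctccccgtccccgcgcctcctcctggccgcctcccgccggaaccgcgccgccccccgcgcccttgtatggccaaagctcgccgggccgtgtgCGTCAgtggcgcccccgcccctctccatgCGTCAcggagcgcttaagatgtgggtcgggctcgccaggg
Nr4a2: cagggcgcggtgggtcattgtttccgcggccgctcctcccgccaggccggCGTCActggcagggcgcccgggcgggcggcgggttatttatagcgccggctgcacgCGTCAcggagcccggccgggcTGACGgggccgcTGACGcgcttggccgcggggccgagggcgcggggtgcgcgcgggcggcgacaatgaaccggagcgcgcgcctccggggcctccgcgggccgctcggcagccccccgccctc
Nr4a3: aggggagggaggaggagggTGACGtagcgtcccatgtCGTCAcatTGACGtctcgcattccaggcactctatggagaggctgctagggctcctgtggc
Rhob: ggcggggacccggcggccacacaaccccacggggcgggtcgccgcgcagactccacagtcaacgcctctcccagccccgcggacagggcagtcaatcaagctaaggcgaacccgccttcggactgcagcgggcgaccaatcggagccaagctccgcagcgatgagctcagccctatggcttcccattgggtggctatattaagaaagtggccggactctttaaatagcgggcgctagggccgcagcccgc

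None of the 7 promoters held the full element TGACGTCA (1.55% of all promoters), the AP-1 element TGANTCA (6.75%), the NGFI-B response element AAAGGTCA (1.34%), a CArG box (1.47%) or a kappa B site (7.25%), with both strands searched and TGACG contained in the full element. The GC box GGGCGG was present in all 7 (32.7% of all promoters), CACCC in 4 (52.0%) and TATAAA in Nr4a2 (12.4%). A match is only a run of letters, and no binding was measured in these cells.

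The genes lay on separate chromosomes except for Nr4a3 and Klf4. By GENCODE M21 on GRCm38 (mm10), the positions were chr15:101254269-101274795 for Nr4a1, chr2:57106830-57124003 for Nr4a2, chr4:48045153-48086447 for Nr4a3, chr8:72319033-72321656 for Klf2, chr4:55527143-55532466 for Klf4, chr13:5861482-5870394 for Klf6, chr12:8497661-8500009 for Rhob and chr10:111506286-111508645 for Phlda1. All 8 are protein-coding. In the last 300 bases of their transcripts, where 3' reads fall, 0 of the 98-base stretches were shared with another gene, so reads of the 3 Nr4a genes could be told apart.

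The library held 2055 cells with 1143 to 8603 UMIs (unique molecular identifiers, each counting 1 captured molecule) and a median of 3278. AM markers were present throughout, with 11 of 12 listed and the single markers found in 31.7% to 100% of cells. T, NK, eosinophil, mast cell and fibroblast markers had 0 listed genes, and each of the 5 listed monocyte and interstitial macrophage markers was found in at most 1.36% of cells. Of the neutrophil markers S100a8 was found in 10.1% and Csf3r in 3.16% of cells, and of the B and plasma cell markers Jchain in 3.21%. Of the 5 epithelial markers Epcam was found in 58.1% of cells and the others in 0.389% to 6.86%, and the part of epithelial cells in the Epcam UMIs was not tested. No cell type that should lack the 8 genes was present to gauge free RNA. As a gauge from outside the sort, Sftpc, a surfactant gene of epithelial cells, had a UMI in 6.86% of cells and the club cell gene Scgb1a1 in 5.50%. To compare cells at equal depth, 2000 UMIs were drawn from each of 1756 cells, and 299 shallower cells were left out of these counts.

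All 8 genes were detected, and their levels spanned an order of magnitude. Because a UMI counts a 3' end, levels (UMIs per 10000 UMIs of all cells) are compared without regard to gene length. Nr4a1 had the highest level of the 8, 5.18 (interval 5.02 to 5.35), and ranked 312 among all genes. Phlda1 followed with 3.82 (3.68 to 3.97), Klf6 with 3.34 (3.21 to 3.48) and Nr4a2 with 2.77 (2.65 to 2.89). The levels of Rhob (2.12, 2.02 to 2.23), Klf4 (2.00, 1.90 to 2.11) and Nr4a3 (1.91, 1.81 to 2.02) lay close together, and the intervals of neighbours overlapped. Klf2 stood far below at 0.399 (0.354 to 0.448), rank 3340. For reference, Fos had 8.31 and Jun 0.921, so that Fos gave 90.03% of the UMIs of the pair and a sum of Fos and Jun is mainly a measure of Fos.

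In cells thinned to 2000 UMIs, Nr4a1 was found in 56.3% of cells (interval 53.9% to 58.6%), Klf6 in 44.5% (42.1% to 46.8%) and Phlda1 in 43.5% (41.1% to 45.8%). Nr4a2 was found in 35.7% (33.5% to 38.0%), Rhob in 31.8% (29.7% to 34.1%), Klf4 in 30.6% (28.5% to 32.9%) and Nr4a3 in 28.8% (26.7% to 31.0%). Klf2 reached 7.0% (5.85% to 8.30%), near the share of the epithelial gene Sftpc, which was 4.16% at the same depth. With all UMIs of the 2055 cells the shares were higher, from 10.9% for Klf2 to 70.6% for Nr4a1. Most positive cells held a single UMI of a gene, as the plot of cells by number of UMIs shows.

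**Figure D1:**
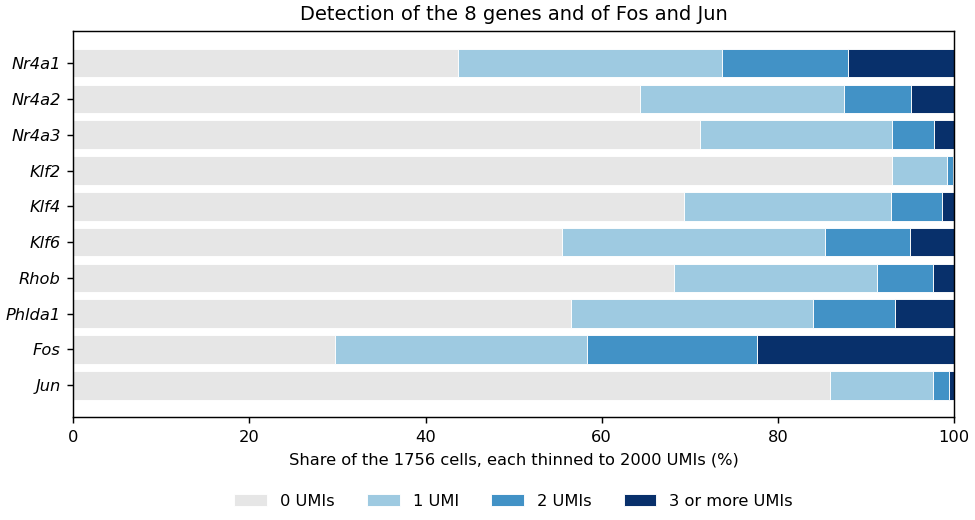
Share of the 1756 cells, each thinned to 2000 UMIs (horizontal axis, percent), with 0, 1, 2 or 3 or more UMIs of each of the 8 genes and of Fos and Jun. Nr4a1 had 3 or more UMIs in 12.0% of cells and Klf2 in 0.171%.

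The genes differed in how unevenly they were spread over cells. The coefficient of variation of the rate between cells was taken after the variance of counting was removed. Of 4023 genes detected in at least 10% of cells, 630 had no variance left and gave no value. The median of the others was 0.385, and all 8 genes were above it. The coefficient was lowest for Klf6 (0.554), Nr4a1 (0.595) and Klf4 (0.608). It was intermediate for Nr4a3 (0.774), Rhob (0.841) and Nr4a2 (1.01), and highest for Phlda1 (1.33) and Klf2 (1.89). Phlda1 reached 34 UMIs in a cell, against a maximum of 16 for Nr4a2, 15 for Nr4a1 and 7 to 10 for the other genes.

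Single cells with many UMIs of these genes differed in which they held. The cell with the most Nr4a UMIs (6086 UMIs in all) had 16 of Nr4a2, 7 of Nr4a1, 6 of Rhob and 3 of Phlda1, with 0 of Nr4a3, Fos and Jun. The cell with the most Phlda1 (6054 UMIs) had 34 of Phlda1, 14 of Fos, 8 of Jun, 7 of Nr4a1 and 4 of Nr4a2. The next Phlda1 cell (4245 UMIs) had 27 of Phlda1, 26 of Tnf, 124 of the chemokine gene Cxcl2 and 4 of Klf2, with no UMI of Nr4a1, Nr4a2, Nr4a3, Fos or Jun. High Nr4a and high Phlda1 counts were thus each found in cells without a Fos or Jun UMI.

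Joint detection was close to what the single shares give, with more cells at both ends. A cell at 2000 UMIs held a mean of 2.78 of the 8 genes. None of the genes was found in 78 cells, where the product of the single shares gives 48.5, and 6 or more were found in 57 cells, where it gives 33.0. The variance of the number per cell was 2.12, against 1.67 from the product. No cell held all 8.

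**Figure D2:**
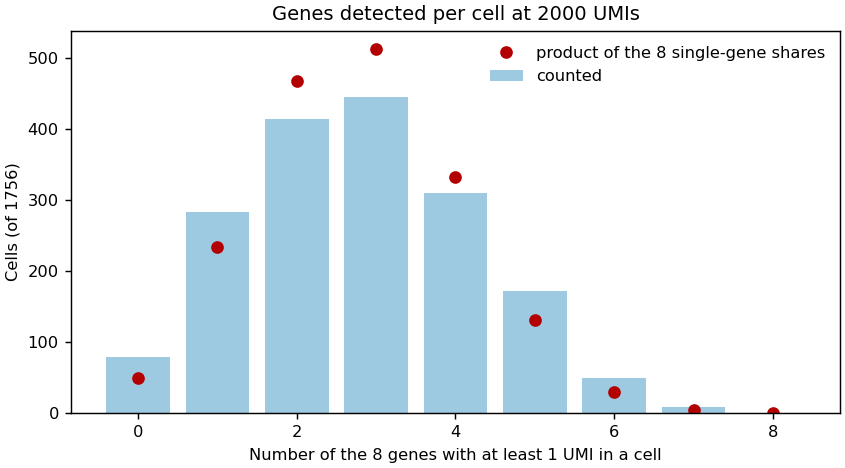
Number of cells (vertical axis, of 1756) by how many of the 8 genes had at least 1 UMI (horizontal axis), with bars for the counts and points for the product of the single shares. The bars exceed the points at 0 and 1 genes and at 5 to 7 genes, and lie below them at 2 to 4 genes.

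Of the 28 pairs, 24 were found together more often than the product of their shares, but by little. The ratio had a median of 1.04 and ranged from 0.951 for Klf2 with Klf6 to 1.31 for Nr4a2 with Nr4a3. The pairs have genes in common and are not independent. The share of such pairs over all genes was not counted, so the counts of pairs have no background. The intervals of these ratios are Poisson intervals of the joint count, with the product held fixed. For genes found in many cells they are wider than the spread of that count at fixed shares. An interval that includes 1 thus does not show that a pair was independent. In 3 pairs the lower bound of the interval was above 1. These were Nr4a2 with Nr4a3 (236 cells, 180.7 from the product, ratio 1.31, interval 1.14 to 1.48), Nr4a2 with Rhob (244 cells, 199.6 from the product, 1.22, 1.07 to 1.39) and Klf4 with Rhob (201 cells, 171.3 from the product, 1.17, 1.02 to 1.35). Nr4a1 gave ratios of 1.09 with Nr4a2, 1.11 with Nr4a3 and 1.11 with Rhob, whose intervals reached just below 1.

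The 3 Nr4a genes were found together more often than their shares give. All 3 were present in 156 cells (8.88%), where the product of the shares gives 101.7, a ratio of 1.53. None of the 3 was present in 417 cells, where the product gives 351.5. At least 1 Nr4a gene was present in 76.3% of cells. In Nr4a2-positive cells Nr4a3 was found in 37.6%, and in Nr4a2-negative cells in 23.9%.

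The ratio of joint detection to the product of the single shares was near 1 for Fos with each of these genes. At 2000 UMIs Fos was present in 70.3% of cells, and its ratio was 1.00 with Nr4a1, 1.00 with Klf6, 1.01 with Rhob, 1.03 with Nr4a3, 1.04 with Klf4, 1.04 with Phlda1, 1.06 with Klf2 and 1.07 with Nr4a2, each with an interval that included 1. For a gene found in most cells this ratio has little room above 1, so it does not show that the genes were unrelated to Fos. Nr4a2 was found in 38.3% of Fos-positive and 29.6% of Fos-negative cells, and Phlda1 in 45.3% and 39.2%. The shares were nearly equal for Nr4a1 (56.4% and 56.0%) and Klf6 (44.5% in both). Jun, present in 14.1% of cells, had a ratio of 1.21 with Phlda1 (interval 1.01 to 1.44) and of 0.829 with Nr4a3 (0.631 to 1.07). Among the pairs with Jun, that with Phlda1 was the one whose Poisson interval lay above 1. The other pairs with Jun are not shown to be independent by these wide intervals.

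Ordered by the sum of Fos and Jun, 6 of the 8 genes were higher in Fos- and Jun-rich cells, by 1.22-fold to 1.66-fold. In the main draw of UMIs their intervals lay above 1, while those of Nr4a3 and Klf6 included 1. The count of 6 depended on the draw and the depth, and the share of all genes with such intervals was not counted. The highest group held at least 3 Fos and Jun UMIs (458 cells), the lowest had none (466 cells), and 832 cells lay between. Over 4503 genes detected in at least 5% of cells, 4.04% were at least 1.5-fold higher in the highest group, and the median fold was 1.02. All 8 genes passed this detection limit, 2 of them reached 1.5-fold, and their median was 1.39. Of 14 other genes of the AP-1 and Egr list that passed, 6 reached 1.5-fold with a median of 1.48, among them Dusp1 (1.84), which encodes a phosphatase of MAP kinases, and the transcription factor gene Egr1 (1.80).

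The level of Nr4a2 was 2.37 in cells without Fos and Jun and 3.57 in the highest group (fold 1.51, interval 1.27 to 1.79). Nr4a1 went from 4.79 to 5.85 (1.22, 1.08 to 1.39) and Nr4a3 from 1.88 to 2.16 (1.15, 0.935 to 1.42). The order of Nr4a1 and Nr4a2 was not stable, since in another random draw of the UMIs Nr4a1 had 1.36 and Nr4a2 1.26, and with all UMIs they had 1.31 and 1.34. Cells without a Fos or Jun UMI still held an Nr4a UMI in 73.2% of cases (interval 68.9% to 77.1%), against 83.4% (79.7% to 86.7%) in the highest group.

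Of the Krüppel-like factors, Klf4 went from 1.68 to 2.40 (fold 1.43, interval 1.16 to 1.76) and Klf2 from 0.354 to 0.590 (1.66, 1.06 to 2.65), the latter on 33 and 54 UMIs. Klf6 had 3.34 and 3.40 (1.02, 0.867 to 1.19). In another random draw Klf6 had 1.18 (1.01 to 1.39), and with all UMIs it had 1.28 (1.14 to 1.44). At 1500 UMIs per cell the intervals of Klf2 (0.726 to 1.72) and Nr4a1 (0.956 to 1.22) included 1. Rhob went from 1.85 to 2.51 (1.36, 1.11 to 1.67) and Phlda1 from 3.22 to 4.56 (1.42, 1.22 to 1.65). The count of genes at 1.5-fold rests on values near that limit, and it was 1 in another random draw of the UMIs, 0 at 1500 UMIs per cell and 3 with all UMIs.

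The course over finer bins of Fos and Jun differed by gene. Nr4a1 had levels of 4.79 at 0 UMIs of Fos and Jun, 4.51 at 1, 5.86 at 3 to 4, 6.24 at 5 to 7 and 4.39 (interval 2.94 to 6.31) at 8 to 14. Nr4a2 went from 2.37 at 0 UMIs to 4.05 at 5 to 7 and was 3.18 (1.97 to 4.86) at 8 to 14. Both were thus highest at 5 to 7 UMIs, with wide intervals in the last bin. Phlda1 lay between 3.22 and 3.87 up to 4 UMIs and was at 6.82 (interval 5.82 to 7.94) at 5 to 7 UMIs, in 121 cells. Nr4a3 stayed between 1.81 and 2.06 up to 7 UMIs and was 3.79 (2.45 to 5.59) in the 33 cells with 8 to 14. Klf4 went up in each bin, from 1.68 to 3.64, with overlap between neighbouring bins.

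**Figure D3:**
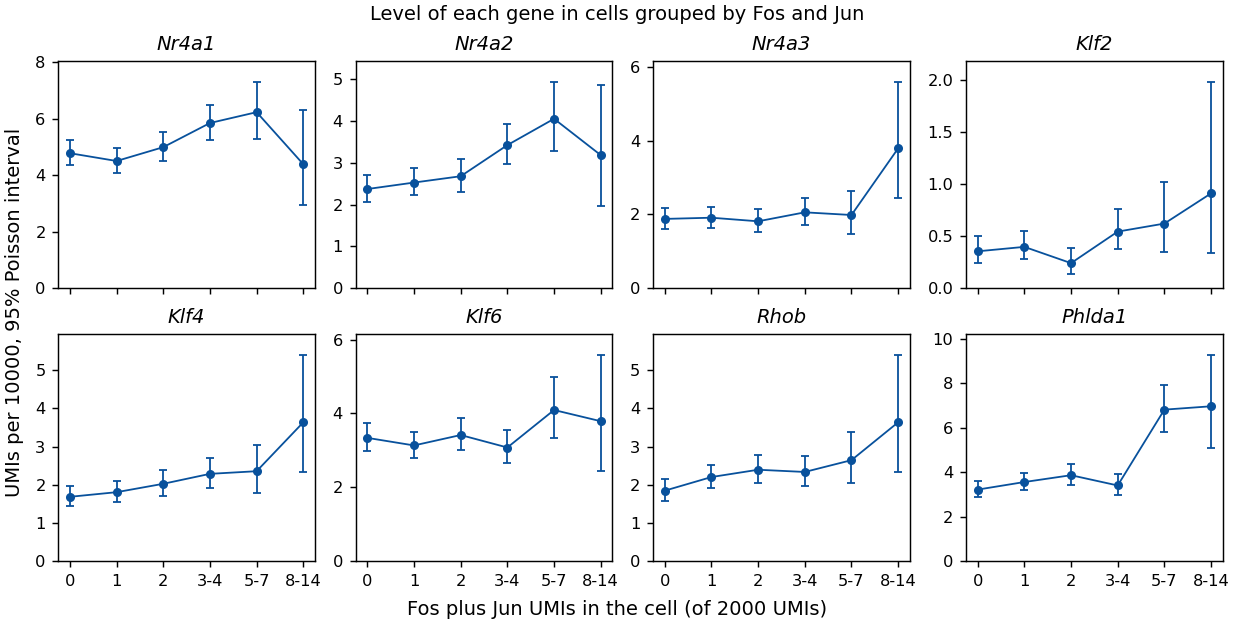
Level of each of the 8 genes (vertical axis, UMIs per 10000, with 95% Poisson intervals) in cells with 0, 1, 2, 3 to 4, 5 to 7 and 8 to 14 Fos and Jun UMIs (horizontal axis, 466, 479, 353, 304, 121 and 33 cells). The level of Phlda1 is 3.40 at 3 to 4 UMIs and 6.82 at 5 to 7, and that of Klf6 lies between 3.08 and 4.09 in all bins.

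The other genes of the AP-1 and Egr list, taken as a sum, separated the cells much more than Fos and Jun did. The name of the list is short for a wider set. It also holds immediate-early genes that encode neither AP-1 nor Egr factors, among them Ier5, Btg2, Zfp36 and Dusp1. Dusp1 had the highest level in the sum (8.15 UMIs per 10000), and the part of each gene in the order was not tested. Cells were ordered by the summed UMIs of the genes of that list other than Fos and Jun (Fosb, Fosl1, Fosl2, Junb, Jund, Atf3, Egr1, Egr2, Egr3, Ier2, Ier3, Ier5, Btg2, Dusp1, Zfp36 and Maff, as far as listed), with at least 14 UMIs in the highest group (473 cells) and at most 6 in the lowest (452 cells). All 8 genes were at least 1.5-fold higher in the highest group, against 8.02% of 4491 genes. Their median fold was 2.80, and that of all genes was 1.02. All 10 tested chemokine and NF-kB targets were higher too, with a median fold of 4.41 (2.44 to 8.00 between genes), and the 3 tested cell cycle genes were lower, with a median of 0.518. The part of these genes in the folds of the 8 genes was not tested. This sum holds more UMIs than Fos and Jun, so the groups are also set apart with less counting noise.

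The folds by role under this order were 2.52 for Nr4a1 (interval 2.18 to 2.92), 3.14 for Nr4a2 (2.55 to 3.89) and 3.13 for Nr4a3 (2.41 to 4.09). Rhob had 3.09 (2.46 to 3.90) and Phlda1 3.20 (2.71 to 3.79). The Krüppel-like factors had less, with 1.77 for Klf6 (1.49 to 2.104), 1.52 for Klf4 (1.22 to 1.90) and 1.87 for Klf2 (1.15 to 3.13). Fos itself was 1.85-fold higher in the same cells and Jun 3.34-fold.

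A correlation of rates across the 2055 cells, with the counting variance taken off, ranks the same relations without groups. It is a description over cells of 1 library that share sequencing and free RNA. With Fos plus Jun it lay between 0.123 for Rhob and 0.299 for Phlda1, with a median of 0.202. With the sum of the other AP-1 and Egr genes the median was 0.438, from 0.18 for Klf2 and 0.22 for Klf4 to 0.59 for Phlda1 and 0.62 for Nr4a1. Fos and Jun correlated with each other at 0.272, so they were loosely tied as well.

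**Figure D4:**
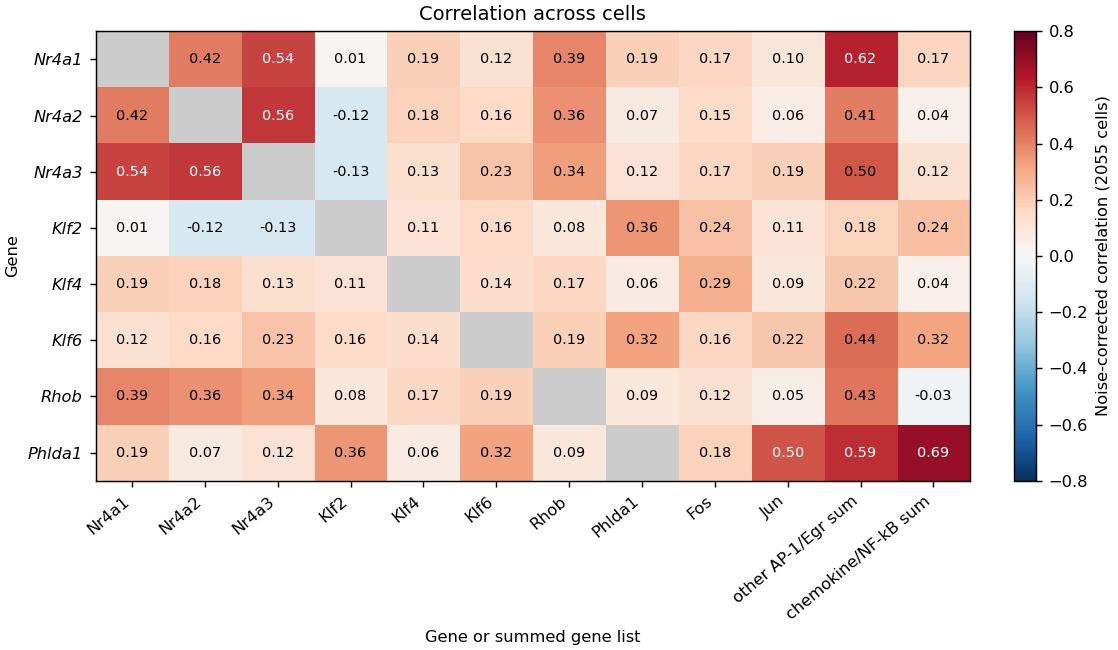
Noise-corrected correlation of rates across 2055 cells between each of the 8 genes (vertical axis) and the 8 genes, Fos, Jun, the sum of the other AP-1 and Egr genes and the sum of the chemokine and NF-kB targets (horizontal axis), with red for positive and blue for negative values. The Nr4a genes and Rhob form a block from 0.34 to 0.56, and Phlda1 has 0.69 with the chemokine and NF-kB sum.

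The 3 Nr4a genes and Rhob varied together. The correlations were 0.42 for Nr4a1 with Nr4a2, 0.54 for Nr4a1 with Nr4a3 and 0.56 for Nr4a2 with Nr4a3. Rhob had 0.39, 0.36 and 0.34 with Nr4a1, Nr4a2 and Nr4a3. After Fos plus Jun was held constant these values were 0.40, 0.52 and 0.55 for the Nr4a pairs and 0.38, 0.35 and 0.32 for Rhob, close to the values before. With the sum of the other AP-1 and Egr genes held constant they were 0.23, 0.34 and 0.45, and 0.17, 0.23 and 0.16.

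The same grouping appeared when cells were ordered by the UMIs of Nr4a1, Nr4a2 and Nr4a3 (at least 3 in 535 cells, at most 1 in 897 cells). Rhob was 1.66 in the low group and 3.06 in the high group (fold 1.84, interval 1.57 to 2.16), the one of the 5 other genes to reach 1.5-fold, against 3.04% of all genes. Phlda1 had a fold of 1.28 (1.13 to 1.45), Klf6 1.25 (1.09 to 1.42), Klf4 1.18 (0.989 to 1.40) and Klf2 0.905 (0.603 to 1.34). Rhob was also the gene most tied to depth, 0.686 times as high in the 439 deepest cells as in the 439 shallowest after thinning (interval 0.564 to 0.832), while the Nr4a genes had 0.888, 0.825 and 0.904. The part of depth in their relation was not tested.

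Phlda1 went with the chemokine and NF-kB targets (Cxcl1, Cxcl2, Cxcl3, Ccl3, Ccl4, Tnf, Il1a, Il1b, Nfkbia, Nfkbiz, Tnfaip3 and Icam1), the inflammatory genes switched on by the NF-kB transcription factor. Its correlation with their sum was 0.69, and with single genes it was 0.74 for the cytokine gene Tnf, 0.73 for Nfkbia, which encodes the inhibitor of NF-kB, and 0.64 for Cxcl2. It was 0.01 with Ccl4. The correlation with the sum was 0.552 from residuals, 0.309 from the scaled scores and 0.209 as a Spearman correlation of the log values. Of the immediate-early genes, Egr1 (0.72), Junb (0.55) and Jun (0.50) went with Phlda1, whereas Fos (0.18), Fosb (0.14) and Atf3 (-0.03) did so little or not.

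In the cells with a Phlda1 UMI (763 cells, against 993 without), Cxcl1 was 3.99-fold higher (interval 2.99 to 5.39), Tnf 3.09-fold (2.49 to 3.85), Cxcl2 2.81-fold (2.64 to 3.00) and Egr1 2.65-fold (2.28 to 3.08). Of the 10 genes of the chemokine and NF-kB list that passed the detection limit, 8 reached 1.5-fold, against 1.27% of 4504 genes. Of the 7 other genes of the set 0 did. Klf6 came closest with 1.32 (1.17 to 1.48), and the rest lay between 1.02 and 1.15.

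The relation of Phlda1 to these targets rested in large part on a minority of cells. In the 182 cells with the highest sum of chemokine and NF-kB targets (at least 12 UMIs), Phlda1 was at 11.02 (interval 9.96 to 12.1), against 2.96 (2.77 to 3.15) in the other 1574 cells, a fold of 3.73. Without the top 10% of cells by that sum the correlation was 0.306. In the same 182 cells Klf2 was 2.12-fold higher (1.35 to 3.23), Klf6 1.72-fold (1.47 to 2.01), Nr4a3 1.43-fold (1.14 to 1.77) and Nr4a2 1.36-fold (1.12 to 1.63). Nr4a1 (1.15, 0.994 to 1.33), Klf4 (1.02, 0.788 to 1.30) and Rhob (0.972, 0.760 to 1.23) had intervals that included 1.

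The Krüppel-like factors did not move as a family. Their correlations with each other were 0.11 for Klf2 with Klf4, 0.16 for Klf2 with Klf6 and 0.14 for Klf4 with Klf6. Klf6 had 0.445 with the sum of the other AP-1 and Egr genes and 0.318 with the chemokine and NF-kB sum. Of the 17 AP-1 and Egr genes 7 reached 0.3 with Klf6, and of the 12 chemokine and NF-kB targets 4 did, with 0.48 for Tnfaip3, a deubiquitinase that limits NF-kB, as the highest of these and 0.002 for Ccl4 as the lowest. The share of all genes at 0.3 was not counted, so these counts have no background. Of 8 housekeeping genes 1 reached 0.3 with Klf6 (Pgk1, 0.32), and 0 did with Klf4. Without the top 10% of cells by the chemokine and NF-kB sum, the correlation of Klf6 with that sum went from 0.318 to 0.0915. Klf4 had 0.216 with the sum of the other AP-1 and Egr genes and 0.04 with the chemokine and NF-kB sum. Within the AP-1 and Egr list the median for Klf4 was 0.126, and 1 of the 17 genes, Fosb (0.41), reached 0.3. Below it came Atf3 (0.299), Fos (0.29), Junb (0.27), Ier5 (0.24), Fosl1 (0.23) and Fosl2 (0.21). Jun had 0.09. Maff (-0.23), Egr2 (-0.10), Btg2 (-0.09) and Ier2 (-0.01) were below 0.

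Klf2 was too sparse for a firm account. Its correlation with Phlda1 was 0.36, yet the genes were found together in 55 cells where the product of the shares gives 53.4. In 11 cells Klf2 had 3 or more UMIs, a limit chosen after the values were seen, and these cells held 15.6% of its UMIs. They had AM markers at 165.3 per 10000 in sum, against 217.2 in the other cells. Chil3, a chitinase-like gene of AMs found in 100% of all cells, gave 111.9 of this sum. Siglecf (0.781 against 1.63), Itgax (1.37 against 3.16), Car4 (2.73 against 5.90) and Krt79 (1.17 against 3.75) were lower in the 11 cells. Marco was close (3.12 against 3.19), and Pparg was not lower (1.56 against 1.17). Ifitm2 and Lst1 had UMIs in 5 of the 11 cells each and the neutrophil gene S100a8 in 2. The levels were 3.90 against 0.541 for Ifitm2, 3.51 against 0.767 for Lst1 and 4.88 against 0.353 for S100a8. These 3 genes were named for their residual correlation with Klf2. Without the 11 cells the correlation of Klf2 with Phlda1 was 0.535.

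Cells high for Nr4a genes and cells high for Phlda1 overlapped about as often as the product of their shares gives. Of 1756 cells, 323 had at least 4 Nr4a UMIs and 281 at least 2 Phlda1 UMIs, and 59 had both, where the product gives 51.7 (ratio 1.14, interval 0.869 to 1.47). In the 264 cells high for Nr4a only, Rhob was 1.70-fold higher than in the 1211 cells high for neither (interval 1.42 to 2.03), while in the 222 cells high for Phlda1 only it was 1.01-fold (0.790 to 1.27). Jun was 0.829-fold (0.550 to 1.21) in the former and 2.34-fold (1.77 to 3.08) in the latter.

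Klf2 and several of the inflammatory and immediate-early genes also differed between these groups. Klf2 was 0.670-fold (interval 0.343 to 1.21, on 13 UMIs) in the Nr4a-high cells and 2.08-fold (1.36 to 3.13, on 34 UMIs) in the Phlda1-high cells. Tnf was 1.83-fold and 5.23-fold, Cxcl2 1.64-fold and 4.43-fold, and Egr1 2.11-fold and 4.36-fold. Nfkbia was 1.32-fold and 2.44-fold, and Ier2 1.27-fold and 2.00-fold. Fos (1.21 and 1.23), Junb (1.56 and 1.60), Btg2 (1.59 and 1.56) and Klf6 (1.24 and 1.27) had similar folds in both. Both groups are compared with the same cells, and their folds are given side by side without a test.

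**Figure D5:**
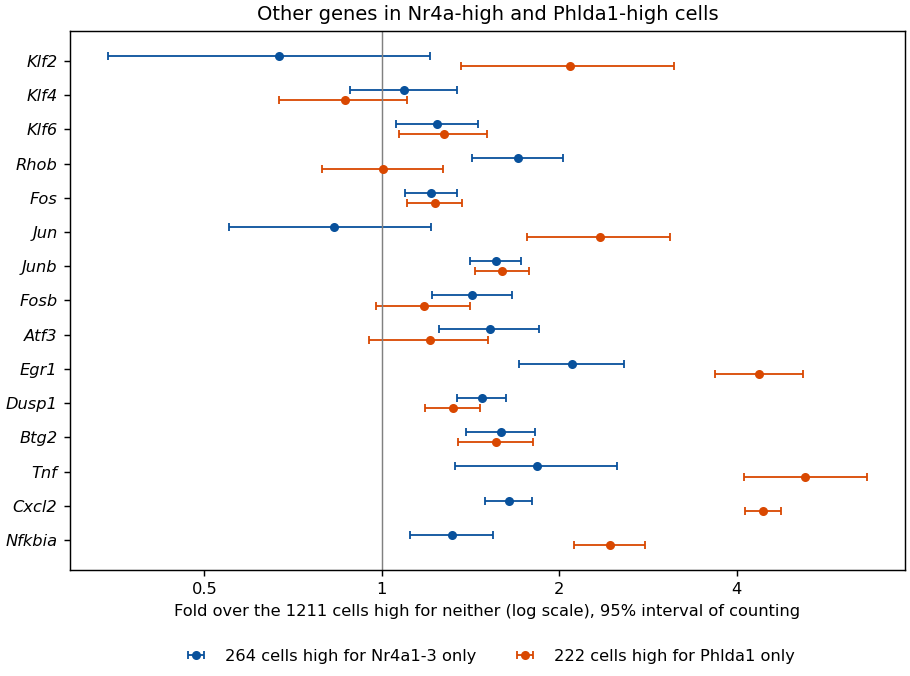
Fold of 15 genes (horizontal axis, log scale, with 95% counting intervals) in 264 cells high for Nr4a1 to Nr4a3 only (blue) and 222 cells high for Phlda1 only (orange), each over the 1211 cells high for neither. Rhob is higher in the blue group, and Tnf, Cxcl2, Nfkbia, Egr1, Jun and Klf2 in the orange group.

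Over all genes the relations can be ranked by a plain correlation of residuals from a model of depth (4021 genes detected in at least 10% of cells), which counting noise makes smaller. With Fos plus Jun, 5.25% of genes had a correlation of at least 0.05, and all 8 genes did, from 0.064 for Nr4a3 (rank 104) and 0.072 for Rhob (rank 66) to 0.113 for Klf4 (rank 25) and 0.183 for Phlda1 (rank 8). With the sum of Nr4a1, Nr4a2 and Nr4a3, 11.2% of genes reached 0.05 and so did 4 of the 5 others, with Rhob at rank 10 (0.208) and Klf2 at -0.037. With the chemokine and NF-kB sum, 4.86% of genes reached 0.05 and so did 6 of 8, Phlda1 at rank 2 (0.552). Klf4 (0.018) and Rhob (-0.014) did not.

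The nearest genes outside the set, by this residual correlation, differed in part between the genes. For Nr4a1 they were Btg2 (0.248), Junb (0.235), Dusp1 (0.216), Zfp36 (0.215) and Ier5 (0.197), and for Rhob Dusp1 (0.239), Junb (0.194), Fosb (0.176), Fosl2 (0.158) and Lpin1 (0.152). For Nr4a2 they were Dusp1 (0.213), Hilpda (0.193), Junb (0.189), Btg2 (0.164) and Fosl2 (0.162), and for Nr4a3 Junb (0.174), Fosl2 (0.174), Runx1 (0.170), Ier5 (0.153) and Btg1 (0.148). Junb was thus among the nearest 5 of all 3 Nr4a genes and of Rhob, and it was so for Klf4 too. It was not particular to them, since its correlation with Phlda1 was higher (0.320), though outside the nearest 5 of Phlda1. Cd9, which encodes a membrane tetraspanin, was among the 3 lowest genes for the 3 Nr4a genes and Rhob (-0.194 to -0.146). It was also among the 3 lowest for Klf4 (-0.088) and Klf6 (-0.090).

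For Phlda1 the nearest genes were Tnf (0.534), Egr1 (0.524), Cxcl2 (0.520), Nfkbia (0.485) and Nfkbiz (0.438). For Klf6 they were Egr1 (0.170), Rasgef1b (0.168), Tnf (0.165), Nfkbiz (0.164) and Tnfaip3 (0.155). For Klf4 they were Fos (0.114), Fosb (0.101), Junb (0.098), Ier5 (0.091) and Rin2 (0.088). For Klf2 they were Ifitm2 (0.191), Lst1 (0.133), Tnf (0.128), S100a8 (0.120) and Nfkbia (0.109). Tnf was the gene that the lists of Phlda1, Klf6 and Klf2 had in common.

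Relatives of the Klf genes and of Phlda1 were measured in the same cells. Of 10 other Krüppel-like genes 8 were listed, and Klf13 was the most abundant (3.45 UMIs per 10000, found in 65.0% of cells), above Klf4. In the order by Fos and Jun, 0 of the 5 that passed the detection limit reached 1.5-fold (median 1.03), and in the order by the other AP-1 and Egr genes 2 did, Klf9 (1.64, interval 1.09 to 2.50) and Klf7 (1.57, 1.13 to 2.21). Phlda3 was found in 8.03% of cells, and Phlda2 had no listed value.

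Partners and upstream factors of the Nr4a genes were listed at low levels, from 0.0775 UMIs per 10000 for Mef2c to 1.56 for Crem. Rxra, which encodes a nuclear receptor that dimerizes with Nr4a1 and Nr4a2, had 0.581. Of the 6 genes that passed the detection limit, Crem, which encodes a CREB-family factor of the cAMP response, was the one to reach 1.5-fold in the order by the Nr4a genes (1.57, interval 1.30 to 1.89), and Creb1 had 0.745 (0.489 to 1.12).

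The 8 genes were also compared between other states of the cells. In the top 10% of cells by cell cycle genes, MHC class II genes, heat shock genes, glucocorticoid-responsive genes or mitochondrial share, the folds of the 8 genes lay between 0.774 and 1.39. By glucocorticoid-responsive genes Klf6 had 1.32 (interval 1.11 to 1.56), Nr4a1 0.835 (0.707 to 0.980) and Phlda1 0.790 (0.649 to 0.954). By cell cycle genes Nr4a2 had 0.775 (0.624 to 0.953) and Phlda1 1.23 (1.05 to 1.42). By MHC class II genes Phlda1 had 0.794 (0.648 to 0.964), and by heat shock genes Nr4a1 had 1.15 (1.01 to 1.32). The intervals of the other folds included 1. By mitochondrial share, the 439 highest cells had 0.811 (Nr4a1) to 0.970 (Klf4) times the level of the 439 lowest.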

How the data were processed

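Single-cell RNA was measured in 1 library of sorted lung AMs. The authors counted UMIs with Cell Ranger on mm10 and deposited, for each gene and cell, the natural log of 1 plus the UMIs per 10000 UMIs of the cell (Seurat LogNormalize). The authors also deposited a scaled score after regression on UMIs and mitochondrial content, which was used here in 1 alternative. UMIs were recovered from the steps of the log values, and 100% of the values were whole within 0.001. The stated filter (300 to 2500 genes, at most 5% mitochondrial content) leaves 1671 of the 2055 barcodes, and 384 cells were over the mitochondrial limit. All cells were kept. Doublets were not called, and cells with at most 1.5 times the median UMIs served as an alternative.

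Rates were compared between groups of cells thinned to 2000 UMIs, with exact Poisson, Clopper-Pearson and conditional binomial intervals. Cells tied at a quartile of the ordering gene went to the outer group. A gene counted as higher at 1.5-fold or more among genes detected in at least 5% of cells. Noise-corrected correlations took the Poisson variance off the moments of the rates, and residual correlations used a negative binomial model of depth with theta 100. No test across mice was possible with 1 library, and no replicate could be left out. The steps were tested on simulated data. Python 3.11.15, numpy 2.4.6, scipy 1.17.1, pandas 2.3.3 and matplotlib 3.10.9 were used. Promoter sequences came from RefSeq (GRCm38.p6) and positions from GENCODE M21.

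The 8 genes and the gene lists were chosen with earlier results of these data known. The named genes are the 8 genes, Fos and Jun, the genes of the lists, and for each of the 8 the 5 outside genes with the highest residual correlation among genes detected in at least 10% of cells. The 3 genes with the lowest such correlation, the orders by Nr4a genes and by Phlda1, the comparison of Nr4a-high with Phlda1-high cells and the count of cells with 3 or more Klf2 UMIs were added after seeing the data.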

Additional observations from a re-analysis of the deposited data

How the results depend on the processing

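The number of the 8 genes at least 1.5-fold higher in Fos- and Jun-rich cells, 2 as reported, depended on the setting. It was 0 with wider outer groups of cells, with Fos alone, at 1500 UMIs per cell, with cells of at most 1.5 times the median UMIs and at a 2-fold limit. It was 1 with Jun alone, in another random draw and with genes detected in at least 10% of cells, and 8 in the order by the other AP-1 and Egr genes. The median fold, 1.39 as reported, was 1.20 with wider outer groups, 1.17 with Fos alone, 1.05 with Jun alone, 1.19 at 1500 UMIs and 2.80 with the other AP-1 and Egr genes. With Jun alone Klf2 had a fold of 0.887, below 1. Where the setting changes which cells or genes are compared the values follow from that, and otherwise the cause was not tested.

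Correlations that keep the counting noise were lower. For the 8 genes with Fos plus Jun, the 8 genes with the other AP-1 and Egr genes and the Nr4a pairs, the medians were 0.0852, 0.252 and 0.207 from residuals, 0.0896, 0.247 and 0.192 as Spearman correlations of the log values, and 0.0867, 0.245 and 0.191 from the scaled scores. The median with Fos plus Jun was the lowest in these 3 settings as in the report, but the other pair changed places, since the Nr4a pairs had 0.539 and the 8 genes with the other AP-1 and Egr genes 0.438 as reported. The correlation of Phlda1 with the chemokine and NF-kB sum went from 0.69 to 0.552, 0.209 and 0.309 in the same order of settings. The mean number of genes per cell and the count of pairs found together more often than the product, between 20 and 26, stayed within 1.5 times the reported values in all settings tried. No paired analysis was possible because there is 1 library with no replicate. At this depth most positive cells hold 1 UMI, which limits joint detection.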

Other observations

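MHC class II genes (H2-Aa, H2-Ab1, H2-Eb1 and Cd74, which present antigen peptides) differed between the same groups of cells, but a few cells held many of their UMIs. Their summed level in the cells rich in Fos and Jun was 0.433 times that in cells without them (interval 0.388 to 0.483), and it was 0.489 times in the order by the other AP-1 and Egr genes and 0.639 times in cells with a Phlda1 UMI. In the order by the Nr4a genes it was 1.32 times (1.22 to 1.43). The 10 cells with the most MHC class II UMIs held 28.6% of them. Without these cells, a choice made after seeing the data, the values were 0.671 (0.593 to 0.758), 0.714 (0.634 to 0.804), 0.893 (0.819 to 0.974) and 1.05 (0.956 to 1.16).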
